A study of Mus musculus with 2 samples.

Results

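The genes described are 8 regulators of early embryonic cell state, namely Lin28a, Lin28b, Hmga1, Hmga2, Igf2bp1, Igf2bp2, Igf2bp3 and Trim71. They were read from every probe set that the platform annotation ties to exactly 1 of these genes. This gave 19 probe sets for 6 genes, of 34958 probe sets for 18194 genes in all. Hmga1 and Igf2bp2 were not analysed here. Expression was measured on 2 Affymetrix arrays, 1 of EGFP-positive and 1 of EGFP-negative cells, sorted from the otocysts of mouse embryos at E10.5. The otocyst is the epithelial vesicle from which the inner ear forms. Both populations came from embryos heterozygous for the transgene Tg(ETAR-EGFP)14Imeg. According to the labels, EGFP marks mainly ventral and dorsomedial otocyst and is missing from the dorsolateral part. The sources used here give neither the number of embryos pooled nor whether the transgene marks cells outside the otic epithelium.

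Lin28a and Lin28b are RNA-binding proteins that hold back the maturation of let-7 microRNAs, and let-7 in turn represses the mRNAs of Lin28a, Lin28b, Hmga2, the Igf2bp genes and Trim71. High Lin28 and low let-7 mark early embryonic tissue, and the balance turns round as cells differentiate. In the mouse cochlea, Lin28b and let-7 have been tied to the timing of cell cycle exit and hair cell differentiation. The gene group is known for its change with developmental stage, and both arrays here come from 1 stage, so these data describe the genes in place and not in time.

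The let-7 sequences are shown because their shared seed is what ties these genes into 1 circuit. Mature sequences were taken from RefSeq (GRCm38.p6), with the seed, bases 2 to 8, in capitals. Of 11 mature let-7 and miR-98 sequences there, 10 share the seed GAGGUAG, and let-7j differs from them at the last base of the seed. The microRNAs themselves were not measured on these arrays. The 4 sequences below are let-7a at chr13:48538239-48538260 on the minus strand, let-7g at chr9:106178846-106178867 on the plus strand, miR-98 at chrX:151913229-151913250 on the plus strand, and let-7j at chr3:140028281-140028304 on the plus strand.
let-7a-5p: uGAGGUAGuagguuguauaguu
let-7g-5p: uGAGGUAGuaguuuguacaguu
miR-98-5p: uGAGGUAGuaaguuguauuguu
let-7j: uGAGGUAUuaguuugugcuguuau

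Values are MAS5 signals, which are brightness values on a linear scale, scaled to a common mean on both arrays. Each array's 40th percentile of signal served as its floor, 10.4 in EGFP-positive cells, against 12.4 in EGFP-negative cells. The brightest of 27 bacterial control probe sets with no evident target reached 12.3 in EGFP-positive cells, against 9.0 in EGFP-negative cells. Where a gene had several probe sets, the one brightest on average stood for it. Ratios divide the EGFP-positive by the EGFP-negative signal, after raising any signal under the floor to it. With 1 array per population there is no p-value, and what follows describes 2 libraries. The only error that could be measured is how far probe sets for 1 gene differ in log2 ratio, an SD that was 0.31 over 5640 genes, and 0.23 for probe sets with a mean signal over 200. It leaves out variation between embryos, sorts and hybridisations. In such bulk samples fewer cells of a type and less RNA per cell cannot be told apart.

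Lin28a, Hmga2, Igf2bp1, Igf2bp3 and Trim71 were above the floor in both populations, with the 2 signals of each gene within 2-fold, and Lin28b was above the floor in EGFP-positive cells alone. None of the 6 genes reached 2-fold higher signal in EGFP-positive cells, beside 2.9% of the 13363 genes that exceeded a floor. None was at least 2-fold lower there, beside 7.63% of those genes. The members' median log2 ratio was 0.10 and that of all genes was 0.00. The middle 50% of genes lay between -0.30 and 0.23, a range that held 4 of the 6 members, Lin28b among them by its bound. The split of all genes past 2-fold depended on scaling. As deposited, 27.6% of them were higher in EGFP-positive cells, against 38.0% after quantile normalization, 13.3% with ratios centred on hybridisation controls and 0.181% with ratios centred on otic epithelium genes.

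**Figure D1:**
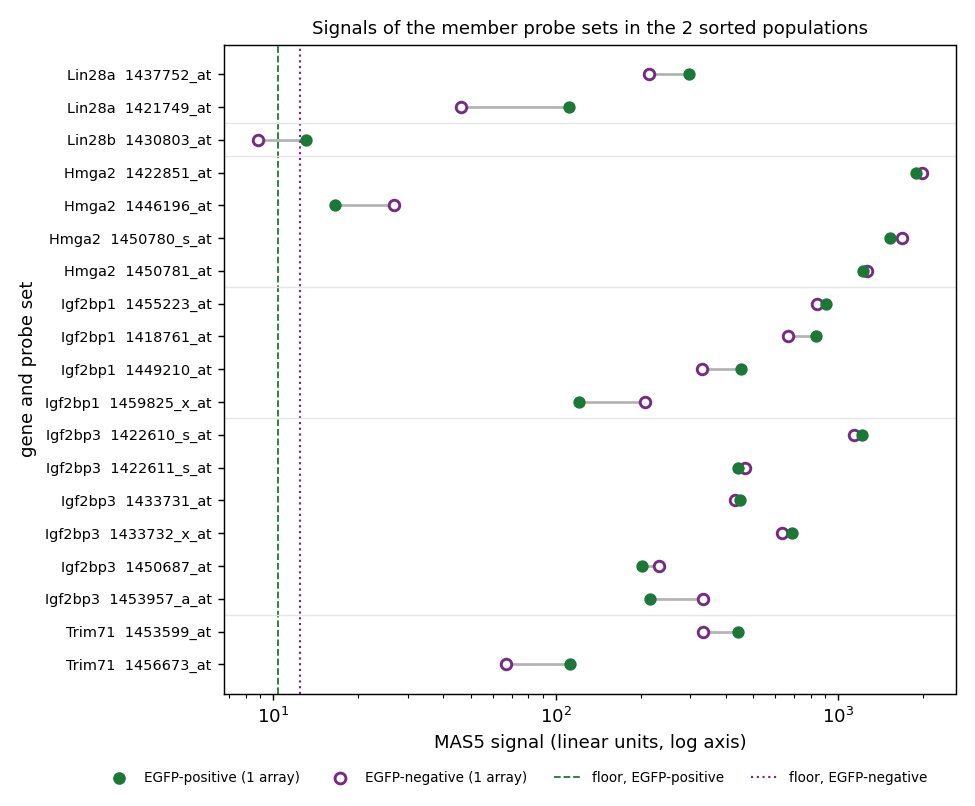
MAS5 signal (log axis) of each of the 19 probe sets in the EGFP-positive array (filled green) and the EGFP-negative array (open purple), 1 array each, with each array's floor as a vertical line. The probe set of Lin28b lies next to the floors, under that of the EGFP-negative array, and both probe sets of Lin28a and of Trim71 have the filled point to the right.

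Lin28a, the paralog that acts with uridylyltransferases on let-7 precursors in the cytoplasm, had the highest ratio among the 5 members above both floors. Its brighter probe set had a signal of 297.4 in EGFP-positive cells, against 214.7 in EGFP-negative cells, 1.39-fold higher, a log2 ratio of 0.47. Its dimmer probe set, 1421749_at, had 112.0 in EGFP-positive cells, against 46.2 in EGFP-negative cells, 2.42-fold higher. Both probe sets were thus brighter in EGFP-positive cells, but only the dimmer one passed 2-fold, and their log2 ratios differed with an SD of 0.57, above the 0.31 that is typical between probe sets of 1 gene. The direction was the same under quantile normalization and with ratios centred on all genes or on hybridisation controls, and turned with ratios centred on the otic epithelium list, to -0.86.

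Lin28b, which can also bind primary let-7 transcripts in the nucleus, was represented by 1 probe set at the limit of detection. Its signal was 13.1 in EGFP-positive cells, just above the brightest silent control on that array, and 8.8 in EGFP-negative cells, below the floor. The ratio is therefore a bound, at least 1.06-fold with EGFP-positive cells higher, a lower bound of 0.08 on the log2 scale. This bound moved to -0.17 with ratios centred on hybridisation controls and to -1.25 with the otic epithelium list. A negative lower bound gives no direction. With 1 probe set, this level could not be set against another.

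Trim71, the mouse counterpart of the Caenorhabditis elegans gene lin-41, encodes an RNA-binding ubiquitin ligase that represses mRNAs of differentiation. Its brighter probe set had a signal of 444.3 in EGFP-positive cells, against 332.5 in EGFP-negative cells, 1.34-fold higher. The dimmer probe set had 112.2 in EGFP-positive cells, against 66.8 in EGFP-negative cells, 1.68-fold higher. As with Lin28a, both probe sets were brighter in EGFP-positive cells, here with log2 ratios of 0.42 and 0.75 that lie within 2-fold. With ratios centred on otic epithelium genes the log2 ratio of the brighter one was -0.91.

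Hmga2 encodes an AT-hook protein that binds the minor groove of DNA and shapes chromatin in proliferating embryonic cells. In its 3 bright probe sets the populations were at most 1.10-fold apart. The brightest had a signal of 1891.4 in EGFP-positive cells, against 1989.0 in EGFP-negative cells, a log2 ratio of -0.07. The next had 1524.7 in EGFP-positive cells, against 1680.3 in EGFP-negative cells, and the third had 1225.2 in EGFP-positive cells, against 1268.8 in EGFP-negative cells. The dim probe set, 1446196_at, had 16.5 in EGFP-positive cells, against 26.8 in EGFP-negative cells, a log2 ratio of -0.70 close to both floors. All 4 probe sets were thus lower in EGFP-positive cells, the 3 bright ones by less than the SD between probe sets. These 3 are annotated to the same source sequence, so they are not independent readings. A probe set annotated to the pseudogene Hmga2-ps1 had 0.3 in EGFP-positive cells, below the floor, against 18.3 in EGFP-negative cells. Its ratio is therefore only a bound.

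The Igf2bp genes encode RNA-binding proteins with KH domains that stabilise, localise and control the translation of growth-related mRNAs. Igf2bp1 had a signal of 910.4 in EGFP-positive cells, against 844.2 in EGFP-negative cells in its brightest probe set, a log2 ratio of 0.11. Another 2 probe sets had 836.1 and 455.0 in EGFP-positive cells, against 666.6 and 329.8 in EGFP-negative cells. Their log2 ratios were 0.33 and 0.46, and both are annotated to the same source sequence. The remaining one, 1459825_x_at, went the other way, with 120.7 in EGFP-positive cells, against 206.8 in EGFP-negative cells, a log2 ratio of -0.78. The ending _x_at marks a probe set with probes that can match other sequences. Igf2bp1 thus had an SD of 0.56 between its 4 probe sets, and no direction common to them.

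Igf2bp3 was measured by 6 probe sets, of which 3 were brighter in EGFP-positive cells and 3 in EGFP-negative cells. The brightest had 1213.2 in EGFP-positive cells, against 1142.8 in EGFP-negative cells, a log2 ratio of 0.09. In EGFP-positive cells, the other bright ones had 689.1, 448.8 and 443.3, against 632.8, 431.3 and 469.5 in EGFP-negative cells. These 4 probe sets, which in part share a source sequence, put the gene at nearly the same level in both populations. The probe sets 1450687_at and 1453957_a_at had 202.4 and 216.2 in EGFP-positive cells, against 231.7 and 332.7 in EGFP-negative cells, and 1453957_a_at had a log2 ratio of -0.62. Over all 6, the SD of the log2 ratio was 0.28.

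Over the 18 probe sets that exceeded both floors, 10 were higher in EGFP-positive cells (55.6%), beside 49.8% of all 21413 such probe sets. Within 0.5 on the log2 scale lay 13 of the 18 (72.2%), beside 76.9% of all. Past 2-fold either way lay 1 of the 18 (5.56%), that of Lin28a, beside 7.2% of all. On each of these counts the members were close to the arrays as a whole. The 5 probe sets outside 0.5 were the dimmer ones of Lin28a and Trim71 and the deviating ones of Hmga2, Igf2bp1 and Igf2bp3, and none of them was its gene's brightest.

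**Figure D2:**
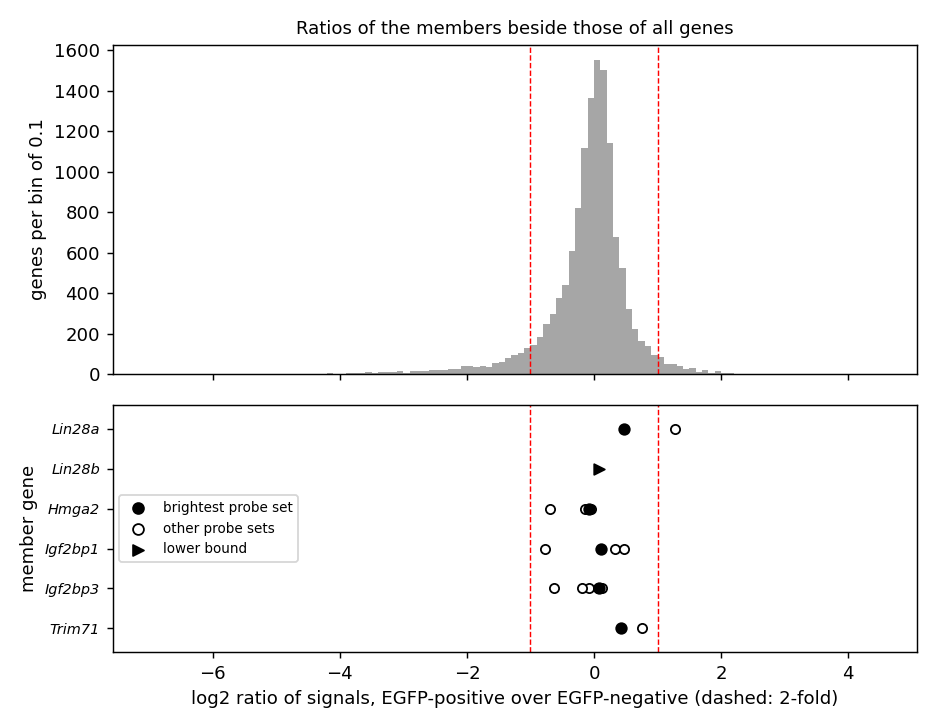
Top, log2 ratio (EGFP-positive over EGFP-negative) of 13363 genes, 1 value per gene; bottom, log2 ratio of each probe set of the 6 members, with the brightest filled, the others open and the bound of Lin28b as a triangle. The filled points lie between -0.07 and 0.47, inside the dashed 2-fold lines, and 1 open point of Lin28a lies outside them at 1.28.

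Genes whose signals were nearest to those of the brightest members, by Euclidean distance over the log2 signals of the 2 arrays, were Vdac1, Serf2 and Atp5k for Hmga2 (distances from 0.020 to 0.037) and Manf, Cops9 and Nudc for Igf2bp3 (0.016 to 0.024). With 2 arrays this likeness rests on 2 values per gene.

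Upstream sequence was compared because it is a feature that the choice of genes did not use. RefSeq start sites (GRCm38.p6) were found for 7 of the 8 genes, all but Igf2bp1. In the 250 bases before the start, Lin28a held 7 CG dinucleotides, Lin28b 6, Hmga2 8, Trim71 17, Igf2bp3 21, Hmga1 34 and 35 at its 2 starts and Igf2bp2 40, against a median of 6 over 32851 promoters, of which the middle 50% held 2 to 16. The TATA box TATAAA, searched on both strands, was in none of the 7, beside 12.4% of all promoters. The letters CCAAT, on either strand, stood in those of Lin28b and Igf2bp3, beside 33.8% of all. The GC box GGGCGG, on either strand, stood in those of Hmga2, Trim71, Hmga1 and Igf2bp2, beside 32.7% of all. A CG inside a GC box is counted in both. The sequences of Lin28a, chr4:134018817-134019066, and Hmga2, chr10:120476470-120476719, both on the minus strand, are printed because these genes had the highest and the lowest ratio among the members above both floors. They run 5′ to 3′ towards the start site, with CG in capitals.
Lin28a: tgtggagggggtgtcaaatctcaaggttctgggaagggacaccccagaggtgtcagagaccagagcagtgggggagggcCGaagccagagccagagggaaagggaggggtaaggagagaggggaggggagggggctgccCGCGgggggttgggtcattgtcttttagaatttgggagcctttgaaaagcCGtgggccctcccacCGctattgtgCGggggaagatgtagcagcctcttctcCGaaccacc
Hmga2: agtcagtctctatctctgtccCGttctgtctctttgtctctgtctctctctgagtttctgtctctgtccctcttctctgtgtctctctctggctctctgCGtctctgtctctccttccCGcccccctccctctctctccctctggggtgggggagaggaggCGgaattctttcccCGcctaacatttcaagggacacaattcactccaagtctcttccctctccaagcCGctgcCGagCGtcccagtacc
The upstream sequence of Hmga2 holds long stretches of t and c, with a GC content of 56.4% in Hmga2 and 61.2% in Lin28a, against a median of 52.4% over all promoters. None of these letters was tested for a part in the signals.

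Genes that act on let-7 were present in both populations and close in level in their brightest probe sets. All 11 listed genes were above the floor in both libraries, none passed 2-fold, and the median log2 ratio was 0.00. Ago1, an Argonaute protein of the silencing complex, had a signal of 551.8 in EGFP-positive cells, against 423.0 in EGFP-negative cells. Its log2 ratio of 0.38 was the largest difference in the list by brightest probe set. Dis3l2, the exonuclease that degrades uridylated let-7 precursors, had 45.1 in EGFP-positive cells, against 37.7 in EGFP-negative cells. Xpo5, which exports precursors from the nucleus, had 294.5 in EGFP-positive cells, against 258.4 in EGFP-negative cells, and Khsrp, which binds the loop of let-7 precursors, 551.1 in EGFP-positive cells, against 617.0 in EGFP-negative cells. The uridylyltransferase genes Tut4 and Tut7, named after their values were seen, had log2 ratios of 0.00 and -0.04. Probe sets of Tut4 ran from 0.00 to 0.68, and those of Khsrp from -0.16 to 0.35. Over all probe sets of the list that exceeded a floor, log2 ratios ran from -0.58 for Dgcr8 to 0.82 for Tarbp2.

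Of 13 measured genes known as let-7 targets outside the members, 1 was at least 2-fold higher and 1 at least 2-fold lower in EGFP-positive cells, with a median log2 ratio of 0.00. The higher one was Nr6a1, the gene of the orphan nuclear receptor GCNF. It had a signal of 348.7 in EGFP-positive cells, against 158.4 in EGFP-negative cells, 2.20-fold higher, and its 5 probe sets had log2 ratios from 0.63 to 1.21. The lower one was Myc, a growth-promoting transcription factor, with 35.0 in EGFP-positive cells, against 142.3 in EGFP-negative cells, a log2 ratio of -2.02. Mycn, its relative in neural and epithelial progenitors, had 669.0 in EGFP-positive cells, against 462.1 in EGFP-negative cells, a log2 ratio of 0.53. Probe sets of Mycn ran from 0.07 to 0.53. The G1 cyclin gene Ccnd1 had 2649.0 in EGFP-positive cells, against 1587.5 in EGFP-negative cells, a log2 ratio of 0.74, with its 3 probe sets between 0.74 and 1.09. The ratios of let-7 targets thus spread to both sides of those of the members.

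mRNAs known to be bound by Igf2bp proteins were mostly lower in EGFP-positive cells, unlike the levels of Igf2bp1 and Igf2bp3 given above. Of 6 measured, 4 were at least 2-fold lower there, beside 7.63% of all genes that exceeded a floor. None was at least 2-fold higher, beside 2.9% of those genes, and the median log2 ratio was -1.70. The other 2, named after their values were seen, were Actb and Btrc, with log2 ratios of 0.26 and 0.37. Probe sets of Actb ran from 0.12 to 0.40, and those of Btrc from -0.93 to 0.37. The 4 lower genes follow. Igf2, the fetal growth factor for which the family is named, had 509.9 in EGFP-positive cells, against 1581.7 in EGFP-negative cells, 3.10-fold lower in EGFP-positive cells, with -2.34 on the log2 scale in its other probe set. The hyaluronan receptor gene Cd44 had 7.6 in EGFP-positive cells, below the floor, against 110.7 in EGFP-negative cells. Mapt, which encodes tau, had 20.3 in EGFP-positive cells, against 68.9 in EGFP-negative cells. Probe sets of Mapt ran from -1.76 to -0.48 on the log2 scale, and the one given was the lowest. Myc was the fourth. Mesenchyme markers moved the same way as these 4 genes, 11 of 12 being at least 2-fold lower in EGFP-positive cells. So did all 8 erythroid, all 8 leukocyte and all 8 endothelial markers, and 6 of 10 hindbrain markers, with 1 higher. The part of any of these cell types in the 4 genes was not tested.

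Of 3 genes that Hmga2 is known to hold down in neural progenitors or that lie at the same locus, Junb had 13.2 in EGFP-positive cells, against 27.8 in EGFP-negative cells, a log2 ratio of -1.07 near both floors. Cdkn2b had 1.4 in EGFP-positive cells, below the floor, against 16.7 in EGFP-negative cells, so its log2 ratio of -0.68 is a bound. The remaining gene, Cdkn2a, was at the floor in both libraries. Other proteins of the high mobility group were close in level, with none of 6 past 2-fold and a median of 0.14. They ranged from Hmgn3 at -0.28 to Hmgn5 at 0.40, both nucleosome-binding proteins, with Hmgb3 at 0.25 and Hmg20b at 0.18. Genes that share a domain with the members were alike, with none of 9 past 2-fold and a median of 0.12. Among these, Trim3, which like Trim71 has NHL repeats, had 50.6 in EGFP-positive cells, against 78.0 in EGFP-negative cells. Trim2, also an NHL gene, had a log2 ratio of 0.29, the cold-shock domain gene Ybx1 0.23 and the KH domain gene Pcbp2 0.18.

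Of 14 genes of pluripotency and early progenitors, 8 were at the floor in both libraries. Sall4, a zinc finger factor that the early embryo shares with some later progenitors, had a signal of 632.5 in EGFP-positive cells, against 314.2 in EGFP-negative cells, 2.01-fold higher, though its other probe set was at 0.21 on the log2 scale. Sox2, also a prosensory gene of the otocyst, had 1142.8 in EGFP-positive cells, against 727.6 in EGFP-negative cells, a log2 ratio of 0.65. Esrrb had 8.7 in EGFP-positive cells, below the floor, against 30.3 in EGFP-negative cells. Its 3 probe sets, however, ran from -1.54 to 0.59 on the log2 scale. Utf1 had 7.5 in EGFP-positive cells, below the floor, against 16.8 in EGFP-negative cells, so its log2 ratio of -0.69 is a bound. Named after their values were seen, the core pluripotency genes Pou5f1 and Nanog had 6.9 and 0.8 in EGFP-positive cells, against 7.9 and 3.3 in EGFP-negative cells, below both floors.

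**Figure D3:**
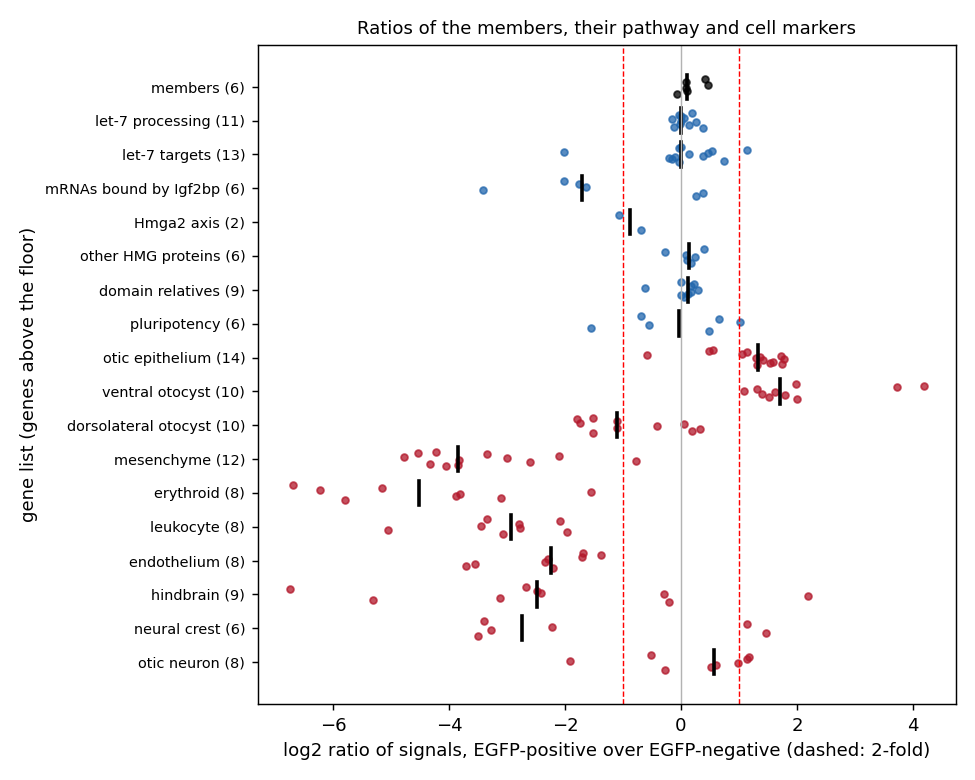
Log2 ratio (EGFP-positive over EGFP-negative) of each gene that exceeded a floor, by list, with the number of such genes in brackets, bounds drawn at their bound and the list median as a black bar. The members (black) lie near 0, whereas otic epithelium genes have a median of 1.33 and mesenchyme genes one of -3.84.

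The markers, from lists chosen with earlier results of these data known, differed between the 2 libraries. Their counts are therefore not independent evidence of a different cell make-up. In EGFP-positive cells 11 of 14 otic epithelium genes passed 2-fold in the higher direction, with summed signals of 11373 against 5544 in EGFP-negative cells, and all 14 were above the floor in both libraries. All 10 ventral otocyst genes were at least 2-fold higher too, and 6 of 10 dorsolateral genes were at least 2-fold lower. At least 2-fold lower in EGFP-positive cells were also 11 of 12 mesenchyme genes (summed signals of 408.0 against 6028 in EGFP-negative cells), all 8 erythroid genes (2996 against 21272), all 8 leukocyte genes (75.4 against 1200) and all 8 endothelial genes (70.1 against 592.0). Hindbrain genes summed to 1781 in EGFP-positive cells, against 2823 in EGFP-negative cells, with 1 higher and 6 lower. Irx3, the higher one, made up most of the sum in EGFP-positive cells, and the other 9 genes summed to 80.1 in EGFP-positive cells, against 2451 in EGFP-negative cells. Neural crest genes summed to 2372 in EGFP-positive cells, against 1819 in EGFP-negative cells, with 2 higher and 4 lower of 6. Without the 2 higher ones, Sox10 and Erbb3, the sums were 77.7 in EGFP-positive cells, against 904.1 in EGFP-negative cells. These genes were left out after their values were seen. Otic neuron genes summed to 2975 in EGFP-positive cells, against 2038 in EGFP-negative cells, with 2 higher and 1 lower of 8. No marker was at 0 in either library. This does not show presence, because bacterial controls with no evident target reached 12.3 in EGFP-positive cells. At or under the EGFP-positive floor were 4 of 12 mesenchyme, 4 of 8 erythroid, 4 of 8 leukocyte and 5 of 8 endothelial genes. The same was true of 6 of 10 hindbrain, 2 of 6 neural crest and 1 of 8 otic neuron genes. Between libraries whose epithelial and mesenchymal markers lay this far apart, the members' ratios by brightest probe set lay within 2-fold. For Lin28b this holds only for its lower bound, and the dimmer probe set of Lin28a was at 2.42-fold. Most genes lay within 2-fold too, so this does not set the members apart. Of the 13363 genes that exceeded a floor, 2.9% passed that limit towards EGFP-positive cells and 7.63% towards EGFP-negative cells. The part of cell make-up in the ratios of Lin28a and Trim71 was not tested.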

How the data were processed

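The deposited values are 1 intensity per probe set, a MAS5 signal on a linear scale made by the authors with MAS5, version 5.0, per the submitters' processing notes. In both columns the mean after trimming 2% at each end was 100.0. Scaling target, detection calls and build are not given in the sources used here. Biotin-labelled cRNA was hybridised, per the labels' protocols.

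Probe sets were named from the platform annotation with current symbols from RefSeq. Of 45101, 34958 named 1 gene (34754 matched a current gene identifier), 932 named several and 9211 were unnamed here. Ratios were taken with Python 3.11.15 and pandas 2.3.3, with the floor, brightest probe set and 2-fold limit given above, without a test because each population has 1 array. The number of arrays limits the precision. The procedure was tested on simulated data with planted changes well past the 2-fold limit. That test does not bear on ratios as small as those of the members' brightest probe sets. As a mark of RNA quality, the Actb control had a 3′ over 5′ signal of 1.34 in EGFP-positive cells, against 1.22 in EGFP-negative cells, and the Gapdh control 0.819 in EGFP-positive cells, against 0.849 in EGFP-negative cells. The Spearman correlation of the arrays was 0.927.

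Members and the 17 other gene lists (170 entries, of which 14 were not analysed here) were chosen with earlier results of these data known. Named from each pathway list were up to 4 genes with the largest ratio, from marker lists their counts and sums, and for the 2 brightest members the 3 nearest genes. Alternatives tried were other floors, no floor with a pseudocount of 1, other scalings, the mean of all probe sets, and leaving out _x_at and _s_at probe sets or bounds.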

Additional observations from a re-analysis of the deposited data

How the results depend on the processing

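No member passed 2-fold in the 7 alternatives set out with the design, nor with ratios centred on hybridisation controls. With ratios centred on the otic epithelium list, which lowers all ratios by 1.33, 4 members counted as at least 2-fold lower in EGFP-positive cells. Lin28b is among the 4 only by its lower bound of -1.25, which cannot show that it was lower. The members' median was then -1.23, while the median of all genes was -1.33. This setting and that of hybridisation controls, which lowers all ratios by 0.25, were added after seeing the data. The members' median was -0.15 with hybridisation controls, and 0.06 to 0.26 in the other alternatives. Probe sets of members above both floors and past 2-fold numbered 2 with hybridisation controls and 13 with otic epithelium, against 1 as deposited. As deposited, 388 genes were at least 2-fold higher and 1019 lower in EGFP-positive cells. A floor raised to the 60th percentile gave 237 higher and 478 lower, and Lin28b was left out. With no floor 602 were higher, with hybridisation controls 223, and with otic epithelium 20 were higher and 11055 lower. Without genes at the floor in 1 array, 632 were lower. Single members moved by more than 0.31 in 8 of 52 values, namely all 6 under otic epithelium, Lin28a to 0.87 with the mean of its probe sets, and Lin28b to 0.52 without a floor. Igf2bp3 had -0.11 with the mean of its probe sets. With hybridisation controls Igf2bp1 and Igf2bp3 were at -0.14 and -0.17, and the lower bound of Lin28b was at -0.17. Signal over background limits Lin28b, which exceeds the floor in EGFP-positive cells alone. No paired analysis was possible because each population has 1 array.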
